A study of Mus musculus with 24 samples.

Results

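Sarcomeric myosin is represented by 10 genes, chosen by name and found by gene symbol among the 46078 genes of each deposited expression table. They are the 6 heavy chain genes Myh3, Myh8, Myh1, Myh2, Myh4 and Myh7 and the 4 light chain genes Mylpf, Myl1, Myl4 and Myl2. All 10 symbols were found once in both tables. The genes, and the gene lists set beside them, were chosen with earlier results of these data known.

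RNA-seq libraries of C57BL/6 mice aged 2 to 4 months formed 4 groups of 4. The cultured cells were proliferating primary myoblasts grown from satellite cells, the stem cells of skeletal muscle, of uninjured Chd4fl/fl muscle, in which both copies of Chd4 can be cut out by Cre. They had received adenovirus coding for Cre (AdCRE) or for GFP (AdGFP) 72 hours earlier. The sorted cells were satellite cells (SCA1-, CD45-, α7-integrin+, CD34+) taken 3 days after cardiotoxin, a toxin that destroys myofibres, from Chd4dPax7ER mice, in which satellite cells lose Chd4 through a Pax7-driven, inducible Cre, and from Chd4fl/fl mice. Among the cultures only the AdCRE group received Cre, so an effect of Cre and an effect of Chd4 loss cannot be told apart there. The sources used here do not give the Cre status of the Chd4fl/fl mice, nor whether they received the inducing drug. Replicates are not labelled as separate mice or cultures, so each p-value refers to the spread among these samples alone. The 8 ATAC-seq samples of the series were not analysed here.

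Myosin is the motor of the thick filament: pairs of heavy chains form the rod and the ATP-splitting heads, and each head carries an essential and a regulatory light chain on its neck. Muscle changes its heavy chains with age and with repair: Myh3 encodes the embryonic and Myh8 the perinatal chain, both made again in regenerating fibres, while Myh2, Myh1 and Myh4 encode the fast adult chains (IIa, IIx and IIb) and Myh7 the slow chain, which the heart also uses. Mylpf encodes the fast regulatory light chain, Myl1 the fast essential chains, Myl4 the essential chain of embryonic and atrial muscle, and Myl2 the regulatory chain of slow fibres and ventricle. Satellite cells themselves hold no sarcomeres, and myosin genes are switched on as their progeny differentiate and fuse.

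Myh3, Myh2, Myh1, Myh4 and Myh8 lie in that order on chromosome 11, between positions 67078273 and 67308634 (GRCm38.p6), a stretch of 230 kb. The flanking genes in the annotation are Sco1 and Myh13. Myh7 lies on chromosome 14, at 54970684 to 54994626. The light chain genes are scattered, with Myl1 on chromosome 1 (66924295 to 66947932), Myl2 on chromosome 5 (122092724 to 122113473), Mylpf on chromosome 7 (127208848 to 127214288) and Myl4 on chromosome 11 (104546017 to 104587215), far from the heavy chain cluster. The heavy chain genes of the cluster are close copies of each other, and the handling of shared reads is not stated in the sources at hand. Values of Myh1, Myh2, Myh4 and Myh8 are therefore less certain than those of the light chains.

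RefSeq promoter windows, from 250 bases before to 50 after a transcription start, matched all 10 genes (GRCm38.p6). Those of the cluster genes Myh8, Myh4, Myh1 and Myh2 share a run of 14 bases, which was found in 4 of 32851 promoters (0.0122%), searched on both strands. Myh8, Myh4 and Myh1 share a further run of 15 bases, found in 3 promoters (0.00913%), and Myh2 has a similar stretch in its place. Both runs were chosen after the sequences were read, and the longest run that the window of Myh3 has in common with the other 4 is 7 bases. The stretches are shown because 3 of these 4 neighbours (Myh8, Myh4 and Myh1) rose in the sorted cells, and capitals mark the shared runs.
Myh8, 104 bases before its start (chr11:67277020-67277083, plus strand): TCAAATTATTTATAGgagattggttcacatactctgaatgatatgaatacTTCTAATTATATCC
Myh4, 187 bases before its start (chr11:67237625-67237667, plus strand): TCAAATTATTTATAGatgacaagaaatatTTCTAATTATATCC
Myh1, 216 bases before its start (chr11:67199886-67199955, plus strand): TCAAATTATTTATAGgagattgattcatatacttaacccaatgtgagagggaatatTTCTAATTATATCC
Myh2, 173 bases before its start (chr11:67170854-67170915, plus strand): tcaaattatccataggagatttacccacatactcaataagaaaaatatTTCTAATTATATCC

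The longer run holds TTATTTATAG, a match to the motif of MEF2, a family of factors that act with the myogenic regulators on muscle genes. That motif was found in the windows of 3 of the 10 genes, Myh1, Myh4 and Myh8, and in 3.19% of all promoters. E-boxes (CANNTG, the core bound by myogenic regulators and other helix-loop-helix proteins) were found in 7 of the 10 genes, against 72.3% of all promoters. The E-box CAGCTG, the form that MyoD often binds, was found in 4 of the 10, against 16.3% of all promoters. These motifs read the same on both strands, and a match is a description of letters, not a site. The starts that the table uses for Mylpf, Myl1 and Myl4 lie inside the annotated gene span. Windows of 26 bases around CAGCTG (capitals) are shown for the light chain genes that rose in the sorted cells and for Myh4, with the number of bases from the motif to the start used by the table.
Mylpf, 51 bases (chr7:127211547-127211572, plus strand): tcctgggctcCAGCTGctgcaggcct
Myl1, 224 bases (chr1:66945265-66945290, minus strand): gtacgtctgtCAGCTGtcaccaaacc
Myh4, 67 bases (chr11:67237735-67237760, plus strand): gcagctaggaCAGCTGaggtggctgc
The window of Myh3, the most abundant heavy chain gene, held neither CAGCTG nor a MEF2 match. It is shown from 250 to 51 bases before the start, with its E-box in capitals.
Myh3 (chr11:67078050-67078249, plus strand): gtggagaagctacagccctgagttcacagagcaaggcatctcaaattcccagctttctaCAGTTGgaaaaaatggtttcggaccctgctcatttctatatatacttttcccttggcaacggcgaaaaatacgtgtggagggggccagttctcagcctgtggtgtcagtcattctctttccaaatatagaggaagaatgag

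Levels are RPKM, reads scaled by gene length and library size, so they can be set side by side between genes of 1 table. Library sums ran from 288659 to 326812 RPKM in culture and from 286802 to 306114 in sorted cells, with mitochondrial transcripts at 2.90 to 6.56% and 9.17 to 12.5%. In culture the steps of low values show that the deepest library had 1.64 times the reads of the shallowest, while in sorted cells the values are rounded to hundredths and depth is unknown. Chd4 itself fell to 27.7% of AdGFP in AdCRE (20.8 ± 3.49 against 75.1 ± 7.75 RPKM, SD, n = 4 each) and to 44.9% of Chd4fl/fl in Chd4dPax7ER (56.7 ± 8.37 against 126 ± 6.77, n = 4 each). Both differences reached the smallest 2-sided exact permutation p that 70 arrangements allow (0.0286), and within the culture pairs the smallest that 16 allow (0.125).

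In satellite cells sorted from injured muscle, myosin messages were higher in Chd4dPax7ER than in Chd4fl/fl. Of the 10 genes, 7 passed the filter on low values (0.5 RPKM in at least 4 of the 8 libraries). Myh8, Myh1, Myh4, Myl1 and Mylpf rose, by 1.35 to 2.89 on the log2 scale, at a limma adjusted p under 0.05. These 5 genes called higher compare with 14.7% of all 13344 genes tested that were called higher (26.6% in either direction). Myh3 and Myl4 did not pass, and none was called lower. The groups did not overlap in 6 of the 7, with Chd4dPax7ER on top in each, against 30.3% of all genes whose groups did not overlap in either direction. The median log2 fold change was 1.5 over the 7 genes and -0.02 over all genes tested. In bulk RNA, fewer cells of a type and less RNA per cell cannot be told apart.

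The perinatal heavy chain gene Myh8 (ENSMUSG00000055775) showed the largest fold change among the 7. Chd4fl/fl replicates 1 to 4 held 0.40, 1.46, 1.22 and 1.40 RPKM, and Chd4dPax7ER replicates held 17.0, 27.2, 6.02 and 4.95. Each Chd4dPax7ER library was above each Chd4fl/fl library, and replicates 1 and 2 were well above replicates 3 and 4. On the log2(RPKM + 0.5) scale, on which changes of low genes are compressed, the rise was 2.89 (SE 0.51, limma adjusted p = 0.0038), and the means differed 12.3-fold (13.8 ± 10.5 against 1.12 ± 0.491, SD, n = 4).

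Myh3 (ENSMUSG00000020908), the embryonic heavy chain gene, was the most abundant heavy chain message in all 16 libraries. In sorted cells Chd4fl/fl replicates held 59.1, 117, 125 and 127 RPKM and Chd4dPax7ER replicates 162, 364, 131 and 138. The groups did not overlap, but Chd4dPax7ER replicate 3 (131) lay just above Chd4fl/fl replicate 4 (127), and replicate 2 (364) stood far above the rest. The difference of 0.82 did not pass (SE 0.35, limma adjusted p = 0.115), and it was 0.48 without Chd4dPax7ER replicate 2 (adjusted p = 0.214).

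Among the fast adult heavy chains, Myh1 (ENSMUSG00000056328) held the most message. Its Chd4fl/fl libraries had 7.11, 10.2, 10.9 and 12.7 RPKM, and its Chd4dPax7ER libraries 42.3, 96.3, 36.4 and 21.7. The lowest Chd4dPax7ER library was thus above the highest Chd4fl/fl library, and Myh1 rose by 2.03 (SE 0.38, limma adjusted p = 0.00505). Myh4 (ENSMUSG00000057003), the gene of the fastest chain, had 0.60, 1.00, 0.80 and 0.98 RPKM in Chd4fl/fl and 2.99, 7.66, 2.21 and 2.12 in Chd4dPax7ER. Here too the groups were apart, with a rise of 1.50 (SE 0.34, limma adjusted p = 0.0124) from a level near 1 RPKM.

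Myh2 (ENSMUSG00000033196), Myh7 (ENSMUSG00000053093) and Myl2 (ENSMUSG00000013936) were below the filter in sorted cells and were not tested. Myh2, the gene of the IIa chain, was listed at 0 in 3 Chd4fl/fl libraries and at 0.02 RPKM in replicate 4, against 0.86, 1.77, 0.02 and 0.08 in Chd4dPax7ER. Only Chd4dPax7ER replicates 1 and 2 therefore carried an appreciable level. Slow Myh7 held 0.07 to 0.17 RPKM in Chd4fl/fl and 0.45, 0.50, 0.13 and 0.19 in Chd4dPax7ER, with overlapping groups. Myl2 was listed at 0 in 7 of the 8 libraries and at 0.46 RPKM in Chd4dPax7ER replicate 2.

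Mylpf (ENSMUSG00000030672) and Myl1 (ENSMUSG00000061816), the fast light chain genes, rose together. Mylpf had 131, 233, 229 and 253 RPKM in Chd4fl/fl and 486, 1035, 333 and 445 in Chd4dPax7ER, with no overlap. It rose by 1.35 (SE 0.33, limma adjusted p = 0.0169). Myl1 had 18.1, 37.2, 29.9 and 38.8 RPKM in Chd4fl/fl and 102, 212, 58.8 and 62.9 in Chd4dPax7ER, again with no overlap, and rose by 1.65 (SE 0.40, adjusted p = 0.0151). Myl4 (ENSMUSG00000061086), the embryonic essential chain gene, had 1.70, 9.11, 4.39 and 8.19 RPKM against 10.6, 27.4, 5.96 and 8.70. Its groups overlapped, since Chd4fl/fl replicate 2 was above Chd4dPax7ER replicates 3 and 4, and the difference of 1.09 did not pass (SE 0.54, adjusted p = 0.166).

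**Figure D1:**
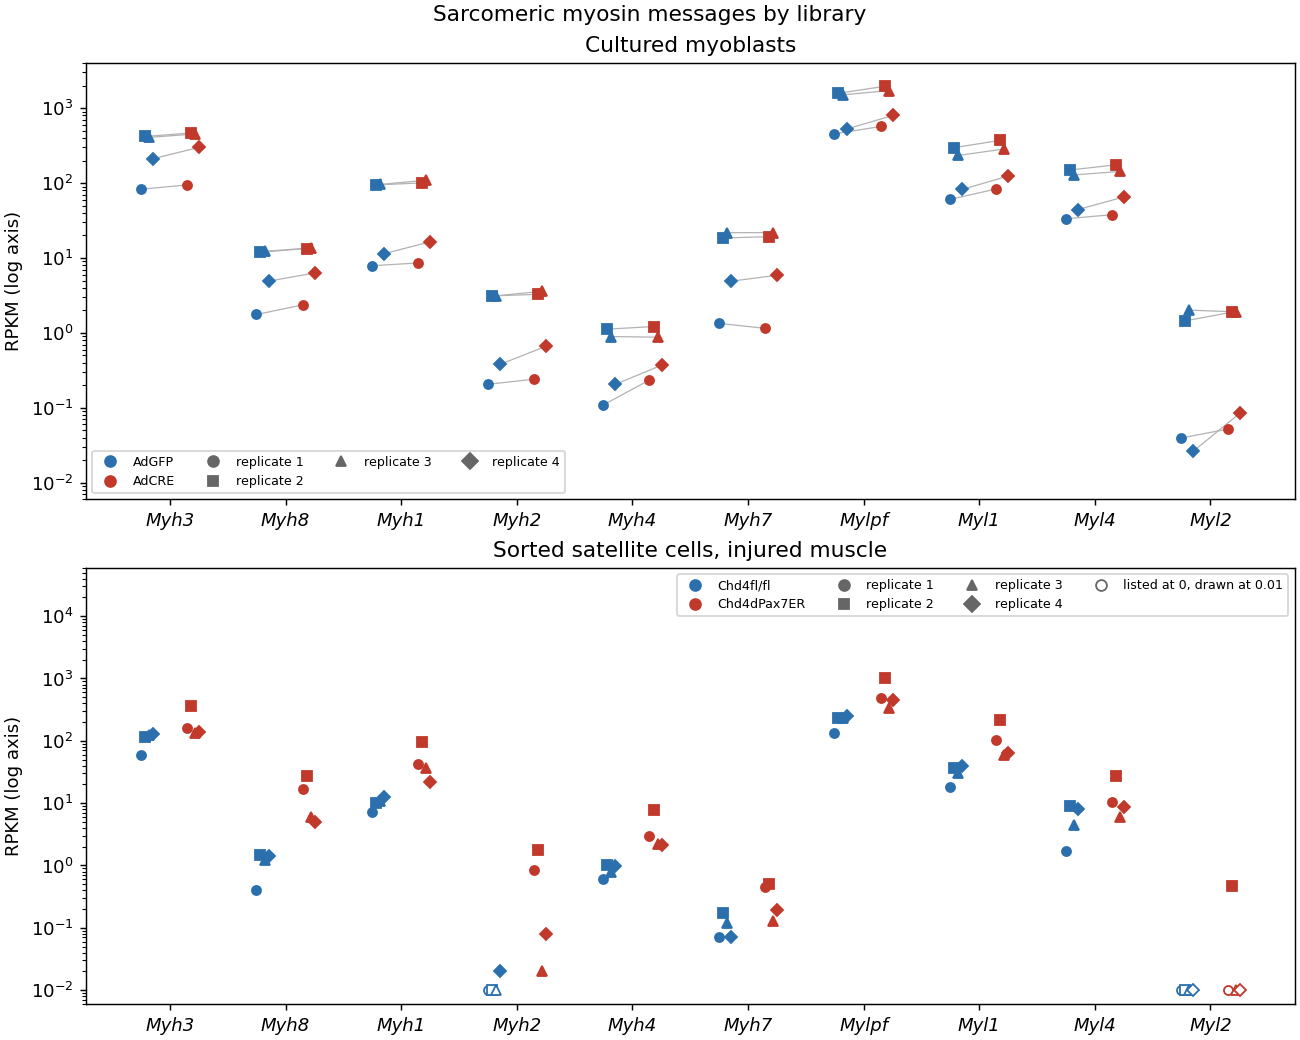
RPKM (log axis) of the 10 myosin genes in each library, with cultures above (AdGFP blue, AdCRE red, same-numbered replicates joined) and sorted cells below (Chd4fl/fl blue, Chd4dPax7ER red); open symbols on the lowest line are libraries listed at 0. In culture replicates 2 and 3 lie above 1 and 4 in both groups for all 10 genes, and in sorted cells Chd4dPax7ER replicate 2 is highest for all 10 genes.

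The same libraries were extreme for most genes. Chd4dPax7ER replicate 2 was the highest library for all 10 genes, and Chd4fl/fl replicate 1 was the single lowest for 7. Without Chd4dPax7ER replicate 2 the 5 genes still passed, at 2.46 for Myh8 (limma adjusted p = 0.00669), 1.64 for Myh1 (0.00357), 1.13 for Myh4 (0.00714), 1.27 for Myl1 (0.0165) and 1.02 for Mylpf (0.0172). The 5 also passed when any other 1 of the 8 libraries was left out.

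The order of levels in Chd4fl/fl sorted cells ran from Mylpf (212 ± 54.7 RPKM) over Myh3 (107 ± 32.2), Myl1 (31.0 ± 9.44), Myh1 (10.2 ± 2.31) and Myl4 (5.85 ± 3.44) to Myh8 (1.12 ± 0.491) and Myh4 (0.845 ± 0.186), with Myh7, Myh2 and Myl2 near or at 0. The first 4 genes had ranges that did not overlap, while Myh1 overlapped Myl4, and Myh8 overlapped Myh4. In Chd4dPax7ER the order was Mylpf (575 ± 313), Myh3 (199 ± 111), Myl1 (109 ± 71.4), Myh1 (49.2 ± 32.6), Myh8 (13.8 ± 10.5), Myl4 (13.2 ± 9.67), Myh4 (3.75 ± 2.64) and then Myh2, Myh7 and Myl2. There, each of these genes overlapped the next one in the order across libraries except Myh4 and Myh2. Within every Chd4dPax7ER library, though, Mylpf, Myh3, Myl1 and Myh1 kept this order, above Myh8 and Myl4, which stood above Myh4. Within every Chd4fl/fl library Myh1 was above Myl4. Myh8 stood behind Myl4 in Chd4fl/fl and beside it in Chd4dPax7ER.

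The makeup of the heavy chain messages also differed between the genotypes. Myh3 made up 87.8, 90.1, 90.5 and 89.4% of the summed heavy chain RPKM in Chd4fl/fl replicates 1 to 4 and 71.8, 73.2, 74.5 and 82.6% in Chd4dPax7ER. Myh8 made up 0.595, 1.13, 0.885 and 0.984% against 7.56, 5.46, 3.42 and 2.96%. Myh1 made up 10.6, 7.85, 7.92 and 8.89% against 18.8, 19.4, 20.7 and 13.0%. Myh4 made up 0.580 to 0.892% against 1.26 to 1.54%. In each of these the groups did not overlap. The embryonic share was lower, and the perinatal, IIx and IIb shares were higher, in all 4 Chd4dPax7ER libraries. The developmental chains Myh3 and Myh8 together held 90.4 ± 1.37% in Chd4fl/fl and 80.4 ± 3.51% in Chd4dPax7ER (SD, n = 4), and 81.0% in Chd4dPax7ER without replicate 2. Shares of 1 sum move against each other, and no test was run on them.

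**Figure D2:**
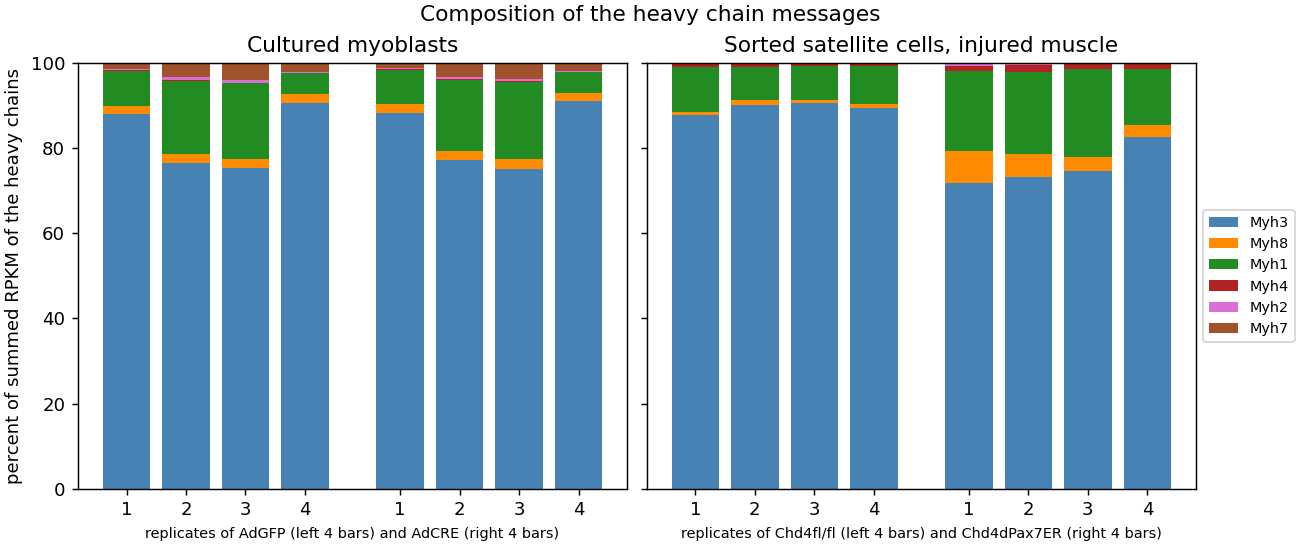
Stacked bars give each heavy chain gene's percent of the summed RPKM of the 6 heavy chain genes in every library, 4 replicates a group. Sorted Chd4dPax7ER cells have a smaller Myh3 part (71.8 to 82.6%) than Chd4fl/fl cells (87.8 to 90.5%), while in culture the bars differ by replicate number and not by virus.

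Summed over the 6 genes, heavy chain messages came to 67.3, 130, 138 and 142 RPKM in Chd4fl/fl and 225, 498, 176 and 167 in Chd4dPax7ER. The 4 light chains summed to 151 to 300.3 RPKM against 398 to 1274. Neither sum overlapped between the genotypes. Light chain messages were 2.10 ± 0.141 times the heavy chain messages in Chd4fl/fl and 2.64 ± 0.346 times in Chd4dPax7ER, where the lowest library (2.26) was just above the highest Chd4fl/fl library (2.24). Mylpf was the main light chain message in both groups (85.4 ± 1.81 and 83.0 ± 2.40% of the light chain sum), and Myl1 held 12.4 ± 0.896 and 15.2 ± 2.24%. The 10 genes together took 0.126 ± 0.0342% of all RPKM in Chd4fl/fl and 0.319 ± 0.182% in Chd4dPax7ER.

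In proliferating myoblasts, the differences between AdCRE and AdGFP were small beside the spread between replicate numbers. None of the 10 genes, all of which were tested, passed without the pairing by replicate number, against 0.656% of all 13567 genes (0.516% called higher), and none had an unadjusted p under 0.05, against 15.6% of all genes. The next fit took the replicate number as a block, and so removed the shared level of same-numbered libraries. In it, Myl1, Mylpf, Myl4, Myh3, Myh8 and Myh1 rose, by 0.23 to 0.42 on the log2 scale. These 6 genes called higher with the block compare with 17.5% of all genes called higher with it (36.2% in either direction). The median log2 fold change was 0.24 over the 10 genes and -0.01 over all genes tested. All 10 differences were above 0, but in the unpaired fit only 3, 5, 2 and 5 were when AdCRE replicate 2, AdCRE replicate 3, AdGFP replicate 1 or AdGFP replicate 4 was left out. Those fits leave a library in 1 group without its same-numbered pair in the other. In the blocked fit without pair 1, 2, 3 or 4, 10, 10, 10 and 9 differences were above 0.

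Myl1 had 60.5, 297, 234 and 82.2 RPKM in AdGFP replicates 1 to 4 and 83.7, 372, 286 and 125 in AdCRE. Replicates 2 and 3 were high and 1 and 4 low in both groups, and AdCRE was higher in each of the 4 pairs, by 1.22 to 1.51-fold. The rise was 0.42 (SE 0.64, limma adjusted p = 0.82, and SE 0.06, adjusted p = 0.00238 with the block). Mylpf had 454, 1580, 1506 and 526 RPKM in AdGFP and 570, 1963, 1717 and 799 in AdCRE, the highest levels of any of the 10 genes in culture. It was higher in every pair, with a change of 0.36 (adjusted p = 0.822, block 0.0112). Myl4 had 33.4, 149, 128 and 44.3 RPKM against 37.9, 175, 143 and 65.4, with the same order of replicates and a change of 0.28 (adjusted p = 0.882, block 0.0197).

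Myh3 had 82.8, 420, 408 and 211 RPKM in AdGFP and 94.5, 466, 452 and 301 in AdCRE, higher in every pair (0.25, limma adjusted p = 0.903, block 0.0277). Myh8 had 1.76, 11.9, 12.3 and 4.91 RPKM against 2.36, 13.4, 13.6 and 6.32, also higher in every pair (0.24, adjusted p = 0.911, block 0.0151). Myh1 had 7.88, 94.5, 96.1 and 11.4 RPKM against 8.60, 101, 109 and 16.5 (0.23, adjusted p = 0.955, block 0.0448). It showed the steepest contrast between replicate numbers among the abundant genes. In each of these 3 genes the groups overlapped widely, and the replicate numbers differed far more than the viruses.

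The remaining 4 genes did not pass with the block either. Myh2 had 0.206, 3.12, 3.12 and 0.379 RPKM in AdGFP and 0.241, 3.27, 3.60 and 0.663 in AdCRE (0.18, limma adjusted p = 0.166 with the block). Myh4 stayed between 0.109 and 1.22 RPKM in all 8 libraries (0.16, block adjusted p = 0.284). Slow Myh7 had 1.34, 18.5, 21.8 and 4.90 RPKM against 1.15, 19.3, 21.9 and 5.90, the smallest difference of the 10 (0.04, block adjusted p = 0.707). Myl2 had 0.0396, 1.45, 2.01 and 0.0264 RPKM against 0.0519, 1.89, 1.91 and 0.0842 (0.10, block adjusted p = 0.477), so that it was near 0 in replicates 1 and 4 of both groups.

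The level order was the same under both viruses: Mylpf (1017 ± 609 RPKM in AdGFP), Myh3 (280.3 ± 163), Myl1 (168 ± 115), Myl4 (88.9 ± 58.6), Myh1 (52.5 ± 49.5), Myh7 (11.6 ± 10.0), Myh8 (7.72 ± 5.23), Myh2 (1.71 ± 1.63), Myl2 (0.883 ± 1.01) and Myh4 (0.583 ± 0.502). In both groups Mylpf lay above the range of Myh3, and every other gene overlapped the next one. The rank of Myh7 above Myh8 came from replicates 2 and 3. In replicates 1 and 4 of both groups Myh8 was the higher, though barely in AdGFP replicate 4 (4.91 against 4.90 RPKM). The rank of Myl2 above Myh4 also came from replicates 2 and 3, and Myh4 was the higher in replicates 1 and 4 of both groups.

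The difference between replicate numbers ran through the whole family, and the labels do not say what the numbers mark. In both groups, replicates 2 and 3 were above replicates 1 and 4 for all 10 genes, with means 2.32-fold (Myh3, AdCRE) to 52.4-fold (Myl2, AdGFP) higher. The top value rests on Myl2 near 0 in AdGFP replicates 1 and 4 (0.0396 and 0.0264 RPKM). This split of replicates was chosen after the values were seen. Between replicates 2 and 3 and replicates 1 and 4, Myh1 and Myh2 differed by 7.60 to 10.7-fold, more than Myh3 and Myh8 (2.32 to 3.63-fold). The developmental share of heavy chain messages was 89.9 and 92.7% in AdGFP replicates 1 and 4 and 78.6 and 77.5% in replicates 2 and 3, with 90.5 and 92.9% against 79.4 and 77.4% in AdCRE. The group values were 84.7 ± 7.74% in AdGFP and 85.0 ± 7.77% in AdCRE. Within the pairs, the median ratio of AdCRE to AdGFP over the 10 genes was 1.21, 1.12, 1.11 and 1.50 for replicates 1 to 4, with 9, 10, 8 and 10 genes higher. In all, 7 of the 10 genes were higher in all 4 pairs, against 25.1% of all genes tested.

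The blocked calls rested in part on single pairs. Myl1 and Myl4 passed in each fit with the block that left out a pair or changed the scaling. Myh1 passed in none of them, with a limma adjusted p of 0.055 to 0.0991. Myh3 missed the threshold without pair 1 (0.064), without pair 4 (0.0539) and with quantile normalization (0.125). Myh8 missed it without pair 4 (0.0654), and Mylpf with quantile normalization (0.0827).

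**Figure D3:**
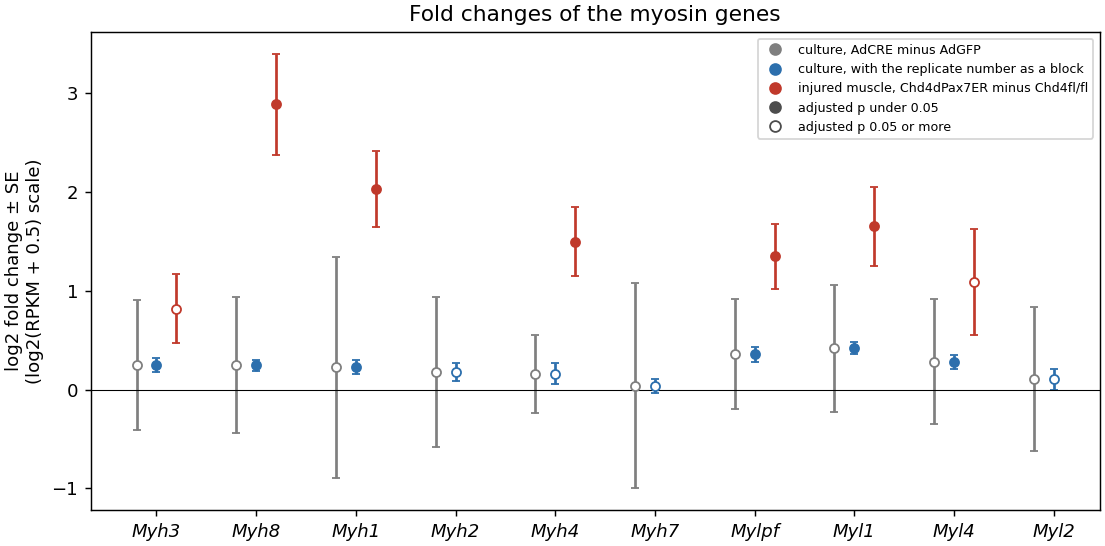
Log2 fold change ± SE of each tested myosin gene on the log2(RPKM + 0.5) scale: cultures without (grey) and with (blue) the replicate number as a block, and sorted cells (red); filled points have an adjusted p under 0.05. In sorted cells Myh8, Myh1, Myh4, Mylpf and Myl1 are filled (1.35 to 2.89), and in culture all changes lie between 0.04 and 0.42.

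The fold changes of the 7 genes tested in both settings were compared directly, each from its own table. None of them differed with the unpaired culture fit, against 5.01% of 11941 genes, with the largest difference for Myh8 (2.64, SE 0.86, adjusted p = 0.0864 from limma's fits). With the culture fit blocked by replicate number, 4 of the 7 differed, against 16.6% of genes. These were Myh8 (2.64 larger in sorted cells, adjusted p = 0.00244), Myh1 (1.80, 0.0048), Myh4 (1.34, 0.0176) and Myl1 (1.23, 0.0451). Mylpf (0.99, adjusted p = 0.0579), Myl4 (0.81, 0.341) and Myh3 (0.57, 0.307) did not pass. The cells, the way Chd4 was removed and the time since removal all differ between the settings and cannot be told apart.

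Other genes of the sarcomere moved with myosin in the sorted cells. Counts from this and the later lists compare with 14.7% of all genes tested that were called higher in sorted cells. Of 12 tested genes of the thick filament and M band, 8 rose and 0 fell (median log2 fold change 1.14, against -0.02 over all genes). Among them were Myom3 and Myom2, which encode M band proteins (4.73 ± 3.30 against 0.828 ± 0.277 RPKM, 1.83, limma adjusted p = 0.00638, and 19.9 ± 12.6 against 6.06 ± 2.14, 1.54, 0.0157), and the myosin binding protein gene Mybph (56.8 ± 35.1 against 15.1 ± 3.85, 1.75, 0.00717). Trim54, which encodes a sarcomeric ubiquitin ligase of the MuRF family, rose by 1.64 (adjusted p = 0.00882), from a Chd4fl/fl mean of 0.5125 ± 0.374 RPKM, near the filter's 0.5. Cmya5, counted among the 8, had a Chd4fl/fl mean of 0.3425 RPKM, below the filter.

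Of 20 tested thin filament and troponin genes, 15 rose and 1 fell (median 1.18). Tnnc2, the fast troponin C gene, rose by 3.36 (446 ± 114 against 44.4 ± 15.8 RPKM, limma adjusted p = 0.000113), a larger value than that of any of the 7 myosin genes tested. Slow troponins rose too, Tnnt1 by 2.23 (adjusted p = 0.000681) and Tnni1 by 2.21 (0.00231), as did the pointed-end cap gene Tmod4, by 2.12 (0.00904). Tmod4 had 3.88 ± 3.24 against 0.395 ± 0.338 RPKM, so its Chd4fl/fl mean was below the filter's 0.5 RPKM. The 1 gene that fell, named after its values were seen, was the tropomyosin gene Tpm1 (87.9 ± 10.5 against 137 ± 11.3, -0.64, adjusted p = 0.0018).

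On the list of genes for myosin folding and phosphorylation, 5 of 13 rose and 0 fell (median 0.18), against 14.7% of all genes called higher. Mylk2, the kinase that phosphorylates the fast regulatory light chain Mylpf, rose by 2.45 in sorted cells (14.4 ± 3.77 against 2.27 ± 0.913 RPKM, limma adjusted p = 0.000364). It was also the 1 gene of the non-marker lists that passed in culture without the block (6.11 ± 1.05 against 2.81 ± 0.158, 0.98, adjusted p = 0.0168). Unc45b, the muscle chaperone of myosin heads, rose by 1.81 in sorted cells (20.2 ± 9.15 against 5.25 ± 1.70, adjusted p = 0.00264). Smyd1, a methyltransferase of muscle that binds myosin, and Cavin4, a gene of muscle caveolae that is on this list although it is not known to fold or phosphorylate myosin, both rose by 0.97 (adjusted p = 0.00309 and 0.00231).

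Of the other sarcomeric myosin genes (Myh6, Myh7b, Myh13, Myh15, Myl3, Myl6b and Myl7), 1 of 7 was tested in sorted cells: the essential light chain gene Myl6b rose by 1.66 (20.3 ± 9.61 against 5.60 ± 0.5 RPKM, limma adjusted p = 0.00307). Among 7 tested nonmuscle and smooth muscle myosin genes, 3 rose and 1 fell, against 14.7% of all genes called higher. Myl9, the regulatory chain of smooth muscle, rose by 1.95 (54.0 ± 8.88 against 13.9 ± 4.32, adjusted p = 0.000414), Myl12b by 0.44 (0.0166) and Myl6 by 0.38 (0.01), while the nonmuscle heavy chain gene Myh9 fell by 0.48 (48.1 ± 4.98 against 67.5 ± 7.07, 0.00764).

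Of 9 genes that neighbour the heavy chain cluster on chromosome 11, 4 were tested in sorted cells, and 0 passed in limma (median 0.17). Over all genes tested 26.6% passed in either direction, so with only 4 genes this count says little about the neighbours. Gas7, named after its values were seen, came nearest, at 0.65 (unadjusted p = 0.0244, limma adjusted p = 0.0767). The noncoding RNA between Myh3 and Myh2, 2310065F04Rik, was listed at 0 in all Chd4fl/fl libraries and had a mean of 0.0775 RPKM in Chd4dPax7ER, below the filter. Myhas, annotated between Myh1 and Myh4 and overlapping the end of Myh1, held 0.0725 against 0.0575 RPKM, and without a statement on strand its reads cannot be told apart from those of Myh1 where they overlap.

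On the list of genes of differentiation and fusion, 7 of 16 rose in sorted cells (median 0.32), against 14.7% of all genes called higher. Tead1, named after its values were seen, was the 1 that fell (-0.49, limma adjusted p = 0.00236). Mymk, which encodes the fusion protein myomaker, rose by 1.52 (194 ± 82.8 against 65.2 ± 15.3 RPKM, adjusted p = 0.00371). Myod1, the gene of MyoD, rose by 1.00 (132 ± 21.0 against 65.7 ± 10.5, 0.0011). The regulator gene Myf6 rose by 1.34 (1.38 ± 0.383 against 0.25 ± 0.173), from a Chd4fl/fl mean below the filter's 0.5 RPKM. Jsrp1, which is on this list but encodes a protein of the junctional sarcoplasmic reticulum, rose by 1.21. Of 12 genes that regulate slow and fast fibre programmes 4 rose and 0 fell (median 0.39), namely Ppargc1a (1.75), Bhlhe41 (0.99), Tbx15 (0.83) and Vgll2 (0.49). Cell cycle genes went the other way, with 0 of 16 higher and 6 lower (median -0.58), among them Aurkb (-1.02), Bub1 (-0.94), Ccna2 (-0.77) and Mki67 (-0.72). Of all 13344 genes tested, 1588 were called lower.

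In culture, with the block, 13 of 18 thin filament genes, 5 of 13 thick filament genes, 8 of 16 genes of the differentiation and fusion list and 8 of 12 fibre programme regulators rose, and 0, 0, 1 and 0 fell, where that fit called 17.5% of all genes higher and 36.2% in either direction. All 16 cell cycle genes fell with the block (median -0.76), where 2536 of all 13567 genes were called lower, and without it none of the 16 passed.

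**Figure D4:**
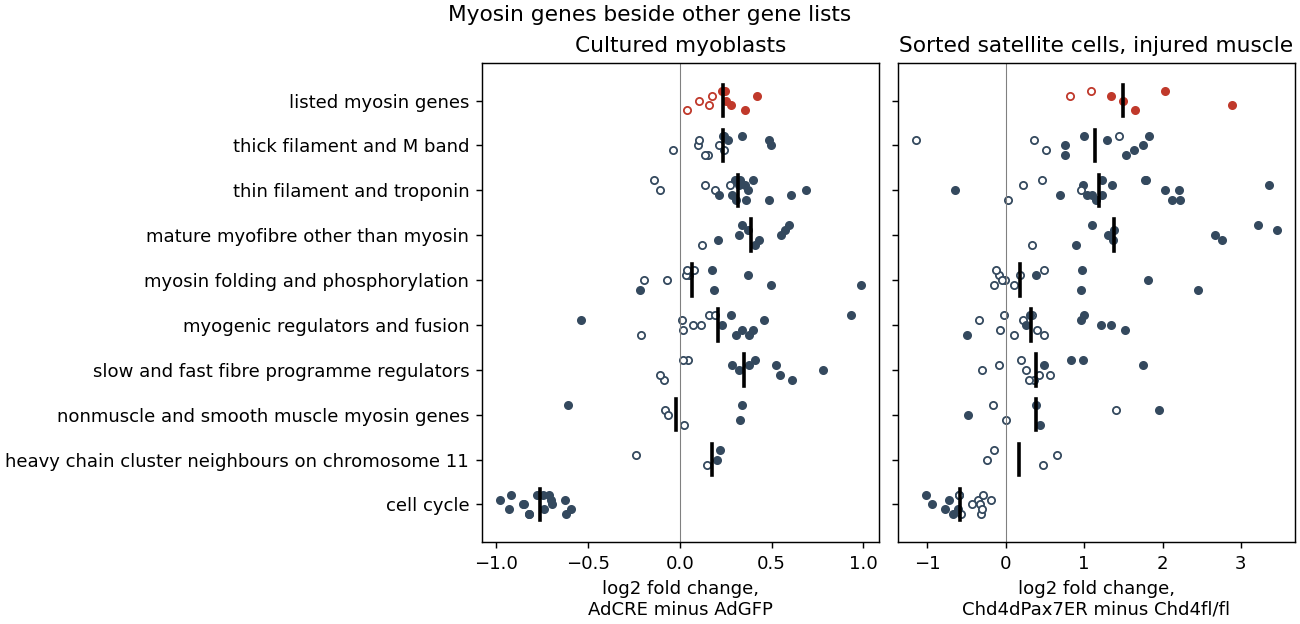
Log2 fold changes of the tested genes of each list (points, filled at an adjusted p under 0.05, with the replicate block in culture) and their medians (bars), with cultures left and sorted cells right on different axes. In sorted cells the myosin genes (median 1.5) lie beside thick and thin filament genes (1.14 and 1.18), and cell cycle genes lie below 0 in both settings.

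Markers of other cell types were read beside these results, although the sort, as labelled, removes CD45+ leukocytes and SCA1+ cells, which include most endothelial cells and fibro-adipogenic progenitors. Mature myofibre genes other than myosin rose in 9 of 10 tested cases in sorted cells (median 1.37), where 14.7% of all genes tested were called higher. Their summed level was 606 to 1120 RPKM in Chd4dPax7ER against 377 to 417 in Chd4fl/fl, highest in Chd4dPax7ER replicate 2, as for the myosin genes. Cox6a2 and Pvalb, counted among these 9, had Chd4fl/fl means of 0.228 and 0.35 RPKM, below the filter's 0.5. The most abundant genes of the list were Eno3, an enolase of muscle, which did not pass (353 ± 56.4 against 277 ± 22.0 RPKM, 0.34, limma adjusted p = 0.0521), and the calcium pump gene Atp2a1 (188 ± 68.7 against 85.0 ± 16.3, rising by 1.10, limma adjusted p = 0.00755). Satellite cell genes summed to 888 to 1039 RPKM against 755 to 888, so markers of the labelled cell type were present in all libraries. Of 12 tested, 2 rose, Itga7 (0.36, limma adjusted p = 0.00804) and Sdc4 (0.50, 0.0392). The 2 that fell were Pax7 (11.5 ± 2.94 against 21.3 ± 6.43 RPKM, -0.85, 0.0301) and Spry1 (-0.92, 0.0306). Pax7, Spry1 and Sdc4 were named after their values were seen. The part of mature myofibre RNA in the myosin result was not tested.

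Fibroblast and fibro-adipogenic progenitor genes summed to 300.2 to 491 RPKM in Chd4dPax7ER against 127 to 177 in Chd4fl/fl (5 of 9 tested rose), led by Dcn (109 ± 32.7 against 10.9 ± 1.81). Schwann and glia genes summed to 28.6 to 68.8 against 19.0 to 27.3 RPKM (4 of 6 rose), endothelial genes to 9.00 to 14.7 against 3.86 to 7.30 (1 of 2), and smooth muscle and pericyte genes to 234 to 447 against 127 to 284 (3 of 7). Macrophage and leukocyte genes summed to 110 to 230 against 91.7 to 170 (0 of 11), and tenocyte genes to 6.15 to 14.4 against 4.98 to 7.21 (0 of 2). No marker of these lists was at 0 in all sorted libraries. The part of these cell types in the myosin result was not tested.

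In culture the mature myofibre genes followed the same split of replicates as myosin. They summed to 346 to 1066 RPKM in AdGFP and 437 to 1267 in AdCRE (9 of 10 tested rose with the block and 0 without). For the other lists the counts that follow give the fit without the block and then with it. Over all genes tested, 0.516% were called higher without the block and 17.5% with it. Satellite cell genes summed to 673 to 761 and 642 to 740 RPKM (0 of 10 passed, and 3 fell with the block). Macrophage and leukocyte genes summed to 2.18 to 8.21 and 4.10 to 12.0 RPKM (0 of 2 rose, then 1), with Adgre1, C1qa and C1qb at 0 in all 8 libraries, as were the satellite cell gene Chodl, the fibroblast gene Dpt, the endothelial gene Emcn and the tenocyte gene Kera. Fibroblast genes summed to 76.1 to 130 and 90.7 to 161 (2 of 5 rose, then 3, with 1 lower), smooth muscle and pericyte genes to 411 to 864 and 678 to 1125 (1 of 5, Rgs5, by 2.06, then 3), endothelial genes to 1.82 to 2.22 and 2.95 to 4.01 (0 of 3, then 2), Schwann and glia genes to 9.43 to 13.7 and 8.40 to 14.4 (0 of 2, then 0) and tenocyte genes to 17.6 to 35.3 and 20.7 to 31.8 (0 of 2, then 0). Col1a1, counted among the fibroblast genes that rose, had an AdGFP mean of 0.0625 RPKM, below the filter's 0.5. The part of these cell types in the culture result was not tested.

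**Figure D5:**
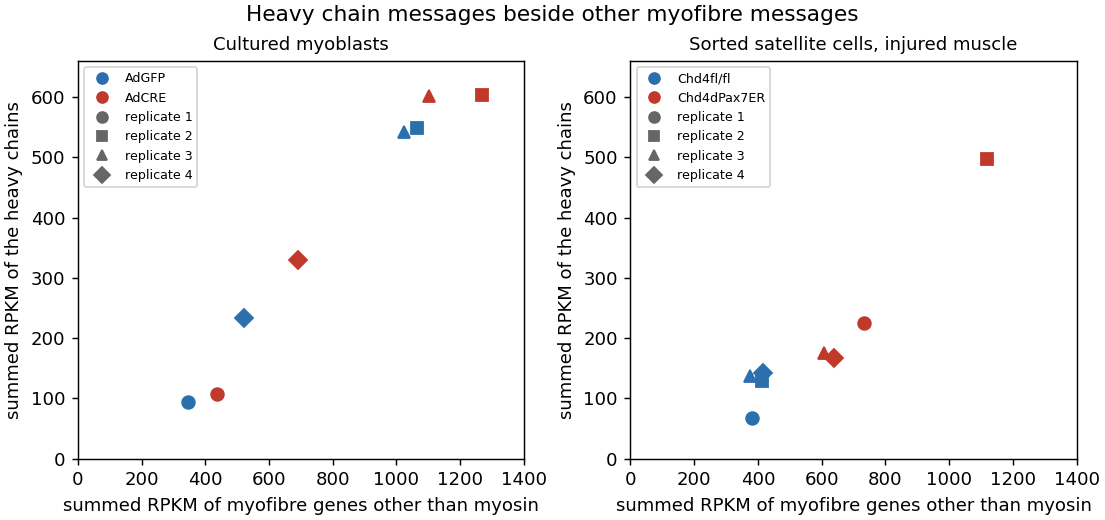
Summed RPKM of the 6 heavy chain genes against the summed RPKM of 11 mature myofibre genes other than myosin, 1 point a library, with cultures left and sorted cells right. In sorted cells all 4 Chd4dPax7ER libraries lie above and to the right of the Chd4fl/fl libraries, with replicate 2 farthest out, and in culture the points follow the replicate number.

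Myosin genes also varied together within groups. Deviations from the group means, over the 8 libraries of a table, were correlated between Mylpf and the other tested myosin genes at r = 0.902 to 0.996 in culture and 0.835 to 0.978 in sorted cells. Outside the 10 genes, the patterns most like that of Myh3 were those of Filip1 (0.999), Col25a1 (0.998) and Arhgap28 (0.997) in culture and of Casq2 (0.996), Tnnc1 (0.992) and Spg20 (0.991) in sorted cells. For Mylpf they were Hfe2 (0.999), Ncf1 (0.999) and Hspb3 (0.998) in culture and Cdc42ep3 (0.993), Dusp27 (0.991) and Cand2 (0.991) in sorted cells. These are descriptions over libraries that share their depth and cell makeup, picked as the highest among all genes tested. In culture, same-numbered libraries also deviate together (r = 0.711 to 0.856), so the values there rest on 4 pairs rather than on 8 separate libraries.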

How the data were processed

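The authors deposited RPKM values in 1 table a setting. Tools named, per the submitters' processing notes, are HISAT2 2.1.0, cutadapt 1.18, FastQC 0.11.8, Picard 2.18.15, DESeq2 3.6, HOMER and MACS2 2.1.2, and the builds are GRCm38 and mm10. No role is given for these tools, and the counting program, its use of strand and the lengths used are not given there or in the tables. RPKM cannot go into a count model, so log2(RPKM + 0.5) was fitted with limma 3.58.1 (R 4.3.3, variance trend), for genes with at least 0.5 RPKM in at least 4 of 8 libraries, with Benjamini-Hochberg adjustment over all genes tested and a threshold of 0.05. The script was tested on simulated data.

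Groups were compared within each table. Deviations of same-numbered libraries from their group means correlated at 0.711 to 0.856 in culture, so same-numbered culture libraries count as pairs. In sorted cells they correlated at -0.0967 to 0.0499, and there numbers do not pair libraries. Fold changes were compared between settings by their difference over the combined SE.

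The 10 genes and all gene lists were chosen with earlier results of these data known. Genes named from a list are the up to 4 largest changes that passed, or the 2 most abundant markers. Others were named after their values were seen. Pygm, listed on more than 1 row, was left out of its list, and Murc was entered beside Cavin4, its current symbol, and so counted once. Alternatives changed the pseudocount, filter, scaling, variance trend, replicate block and libraries used.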

Additional observations from a re-analysis of the deposited data

Results flagged for a closer look

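Of 39 groups of 4 libraries checked for a single library far from the other 3, 5 were picked out, all in sorted cells, and chance picks out about 1 in 20 where values vary freely. That rate does not apply to Myh2 and Myl2 here, since the other 3 libraries were listed at 0. Chd4dPax7ER replicate 2 stood apart for Myh3 (364 RPKM, the others 131 to 162), Myh4 (7.66, the others 2.12 to 2.99) and Myl2 (0.46, the others at 0). Chd4fl/fl replicate 1 was low for Myh3 (59.1 RPKM, the others 117 to 127), and Chd4fl/fl replicate 4 held 0.02 RPKM of Myh2 where the others were listed at 0.

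With the culture fit blocked by replicate number, the fold change was larger in sorted cells than in culture for Myh1 (by 1.80 on the log2 scale), Myh4 (1.34), Myh8 (2.64) and Myl1 (1.23). The unpaired fit gave the same differences with a wider error, and none of them passed.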

How the results depend on the processing

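In sorted cells, Myh8, Myh1, Myh4, Myl1 and Mylpf kept their calls, and Myh3 and Myl4 missed the threshold, under all 16 alternatives (pseudocount, filter, TPM scaling, quantile normalization, no trend, replicate block, each library left out). In culture the paired calls depended on the fit, and the cause was not tested. The 89 genes called without the replicate block became 4907 with it, 4894 with the block and TPM scaling and 4958 with the block and quantile normalization. Leaving out pair 1, 2, 3 or 4 in the blocked fit gave 3825, 3720, 3814 and 3157. The count of myosin genes called, 0 without the block, was 6 with it, then 5 and 3 under these scalings and 4, 5, 5 and 3 without each pair. Leaving out 1 library without the block gave 16 (without AdCRE replicate 2) to 44 genes (without AdCRE replicate 1) and 0 myosin genes, from fewer samples. The count of genes whose fold change differed between settings, 598, was 1924 with both settings blocked and 1981 with the culture block alone, which was added after the data were seen, as were the fits with the block and a scaling or a pair left out. The myosin genes among them were 5 and 4, and Mylpf was the fifth. Leaving out a library gave 349 (without AdGFP replicate 3) to 632 genes, 390 without Chd4dPax7ER replicate 4, and 0 to 1 myosin genes, the 1 being Myh8 without AdGFP replicate 1. Chd4 changed by -1.84 and -1.16 with the replicate block too, where the smallest exact p that 4 pairs allow is 0.125.

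Unknown reads per library limit the low genes: Myh2, Myh7 and Myl2 in sorted cells cannot be given an error from counting. Unpaired fits that left out 1 culture library left another library without its pair. In those fits, up to 8 of the 10 culture fold changes turned negative (without AdGFP replicate 1). When whole pairs 1 to 4 were left out of the blocked fit, 10, 10, 10 and 9 of them stayed above 0. Shared reads between heavy chains, Cre exposure and the cell makeup of the sorted samples could not be separated from the fold changes.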
